A study of Mus musculus with 2 samples.

Results

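The models described here are the reproducible transcript models with unannotated splice sites in mouse cerebral cortex. TALON, a tool that sorts long reads into transcript models, gives the class NNC to a model that has at least 1 splice donor or acceptor outside the annotation. A model was a member when the class was NNC in both libraries, the chromosome, strand and every intron position were identical, and each library held at least 3 reads of it. This rule chose 698 models in 591 genes, of 21194 NNC models in replicate 1 and 20777 in replicate 2, and of 132801 and 133303 models in all. Of the 3763 NNC chains found in both libraries, 18.5% were members. The members were chosen by these read counts, so their presence in both libraries and their levels are a description and carry no test.

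The study made long-read libraries of total RNA from adult B6NCrl mice aged 6 months, taken from the cerebral cortex of the left side, with no treatment and no other condition. The labels also name the strain C57BL/6 and the sex male in their descriptions, while their sex field says that it was not collected. There was 1 group of 2 libraries, labelled biological replicates 1 and 2, and both carry the same donor record. The spread between them may therefore be technical, and a p-value between them measures only the spread between these samples. The libraries held 1306424 and 1304133 reads. All 19 marker genes checked had reads in both libraries. The summed level of the neuron markers was 3772 CPM (reads scaled to the library's total) in replicate 1 and 3346 in replicate 2, that of the oligodendrocyte markers 4038 and 3753, and that of the choroid plexus markers 57.4 and 36.0.

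A splice donor is the first base of an intron and an acceptor is its last base. Nearly all introns begin with GT (less often GC) and end with AG, and the spliceosome can choose between closely spaced donors or acceptors, so that exons differ by a few bases. Neurons are known for many exons of very few bases, called microexons. Offsets are given in bases from the nearest annotated site of the same kind, positive when the new site lies 3′ of it, with the annotation GENCODE M21 and the mouse build mm10.

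The sequences that carry the results are shown first, each read from GENCODE M21 transcripts or RefSeq promoter windows and written 5′ to 3′ on the gene's strand. In the donor set the first pair of capitals is the annotated donor and the second is the new one. These show the commonest new donor, 4 bases into the intron, in Sh3glb2 (chr2:30350266-30350295, minus strand), Cst3 (chr2:148872795-148872824, minus) and Mt3 (chr8:94153083-94153112, plus), and a donor 10 bases into the intron in Dctn2 (chr10:127267481-127267510, plus).
Sh3glb2: aagccacgGTaaGTactcctgcccctcctt
Cst3: tgatgaggGTagGTacttgatatcagccta
Mt3: caagaagaGTgaGTgcacccccccaccccc
Dctn2: cgGTaagactgtGTgctacctcaggatccc

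In the acceptor set the first pair of capitals is again the annotated acceptor and the second is the new one. They show new acceptors 3 bases into the exon in Vip (chr10:5642453-5642482, plus) and Mettl9 (chr7:121076114-121076143, plus), 4 bases in Apod (chr16:31314454-31314483, minus) and 5 bases in Atp5j (chr16:84831492-84831521, minus).
Vip: atttttctttccttAGtAGgctggatgaca
Mettl9: tttttatttgttctAGtAGgtggcaagtgg
Apod: ctgtcttcatttcAGttAGaaactgacagt
Atp5j: taatgcttctctAGtacAGagactcagcca

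The most abundant member belonged to Uchl1, a ubiquitin hydrolase abundant in neurons. It had 1028 reads in replicate 1 and 1023 in replicate 2, which is 786 ± 1.73 CPM (SD, n = 2). It took 86.3% of the reads of Uchl1 in replicate 1 (84.2 to 88.2) and 83.9% in replicate 2 (81.7 to 85.9); ranges in brackets are 95% Clopper-Pearson intervals and cover counting error only. Its only unannotated site was a GC donor 9 bases 3′ of the donor of the first annotated exon. The annotated coding transcript has an exon of 12 bases after that donor (chr5:66676436-66676447), and the member's first intron ran across it. Models with the 12-base exon had 0 reads in both libraries, which allows a share of up to 0.290% of the reads with the exon or that intron in replicate 1 and 0.291% in replicate 2. The bases added to the first exon and the 12-base exon are set side by side here in lower case with no letters marked.
Uchl1 added bases: gtaagcata
Uchl1 annotated exon: atgctgaacaaa

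The same arrangement recurred. In 50 members (7.16%) of 44 genes, an intron with a new end ran across an annotated exon of at most 27 bases, while bases were added to a neighbouring exon at a point within 30 bases of its annotated boundary. These limits were chosen after the values were seen. The 50 members held 32.4% of all member reads in replicate 1 and 28.6% in replicate 2, and 10 of the 15 most abundant members were among them. They carried 52 such introns, 7.01% of the 742 introns of members with a new end. In models of 1 library only the share was 4.02% of introns at 3 or more reads and 1.05% at 1 read.

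**Figure D1:**
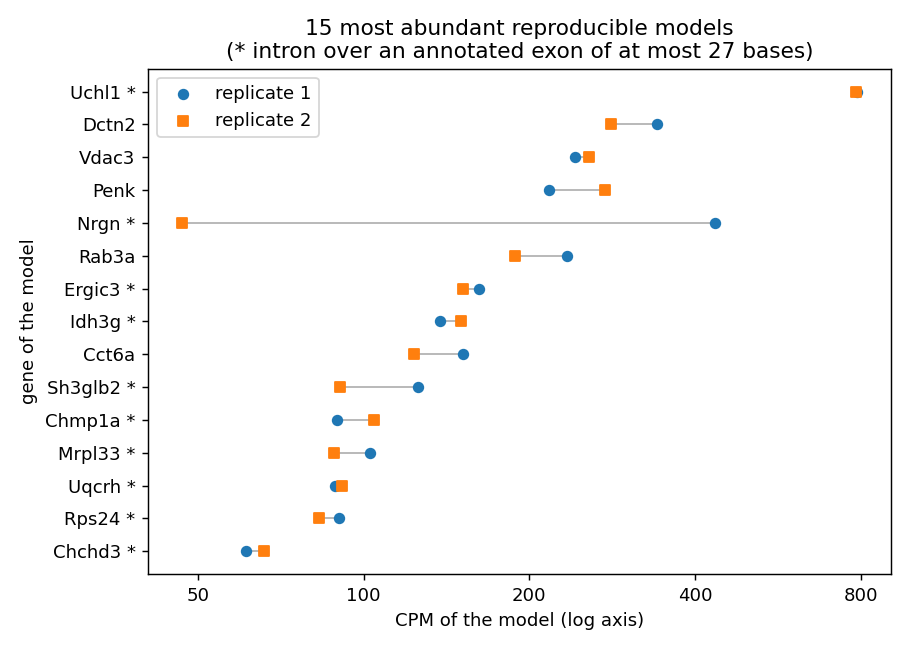
CPM on a log axis of the 15 most abundant members in replicate 1 (circles) and replicate 2 (squares); an asterisk marks members with an intron across an annotated exon of at most 27 bases. Uchl1 lies at 787 and 784 CPM, and Nrgn is the member whose libraries lie far apart, at 434 and 46.8 CPM.

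Counted once per intron, the exons crossed were 3 to 27 bases long with a median of 19. For 27 of the 52 introns the exon's length was a multiple of 3. An exon crossed by more than 1 new intron, as in Uchl1 and Rps24, was counted each time. Bases were added at the donor side in 39 introns, at the acceptor side in 10 and at both in 3. The number of added bases equalled the exon's length in 6 introns and lay within 5 bases of it in 31. The added length minus the exon's length ran from -15 to 8 bases with a median of -3.5. For 29 of the 52 introns no read of either library was in a model with the exon.

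Suds3, a subunit of the Sin3 histone deacetylase complex, had bases added on both sides, and its member had 73 and 4 reads. The donor moved by 4 bases and the acceptor by 16, and the annotated exon between them (chr5:117106646-117106665) is 20 bases long. Over all models the intron had 119 reads in replicate 1 and 4 in replicate 2, and the exon had 1 and 0. The gene had 138 and 20 reads in all, so the whole gene was lower in replicate 2. The member's share of these reads was lower too, at 52.9% (44.2 to 61.4) in replicate 1 and 20% (5.73 to 43.7) in replicate 2. Pitpnb, a phosphatidylinositol transfer protein, had 8 bases added beside an exon of 8 bases, in an intron with 115 reads in replicate 1 and 123 in replicate 2, and no read held the exon. Its member, which has another new site as well, had 14 and 8 of those reads.

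Sh3glb2, an endophilin that bends membranes, had 2 such introns in 1 member. The intron with 16 added bases crossed an exon of 15 bases with 254 and 204 reads, and the other, with 4 added bases, crossed an exon of 12 bases with 226 and 166 reads. The 15-base exon had 0 reads in both libraries and the 12-base exon had 0 and 1. Few informative reads were counted at annotated donors: 91.0% used the first new donor in replicate 1 and 94.0% in replicate 2. The member itself had 164 and 118 reads.

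The sequences below are added bases and exons where both could be read from transcripts. They are shown, with no letters marked, so that the exon crossed and the bases added beside the same intron can be read together. The exons lie at chr14:24495430-24495449 for Rps24, chr2:30346059-30346073 for Sh3glb2 and chr5:31614603-31614621 for Mrpl33.
Rps24 added bases: gtactgccattgggcacg
Rps24 annotated exon: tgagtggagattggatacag
Sh3glb2 added bases: gtgtggctggacccag
Sh3glb2 annotated exon: ctcccagggtgccat
Mrpl33 added bases: gtaagtcg
Mrpl33 annotated exon: ttgccaagagcaagtcaaa

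Annotated internal exons of protein-coding transcripts were then counted by length, wherever at least 20 reads in each library held or crossed the exon. No read held any of the 17 exons of 1 to 6 bases, and 26 of 27 exons of 7 to 12 bases had none. Of 36 exons of 13 to 18 bases, 27 had none. Of 152 exons of 19 to 27 bases, 13 had none, and their median inclusion was 95.7%. Of 10829 exons of 51 to 100 bases, 1.39% had no including read. The number of reads with an exon of under 19 bases was therefore at or near 0 in these files for most such exons, members or not, and whether the RNA molecules held them was not tested.

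**Figure D2:**
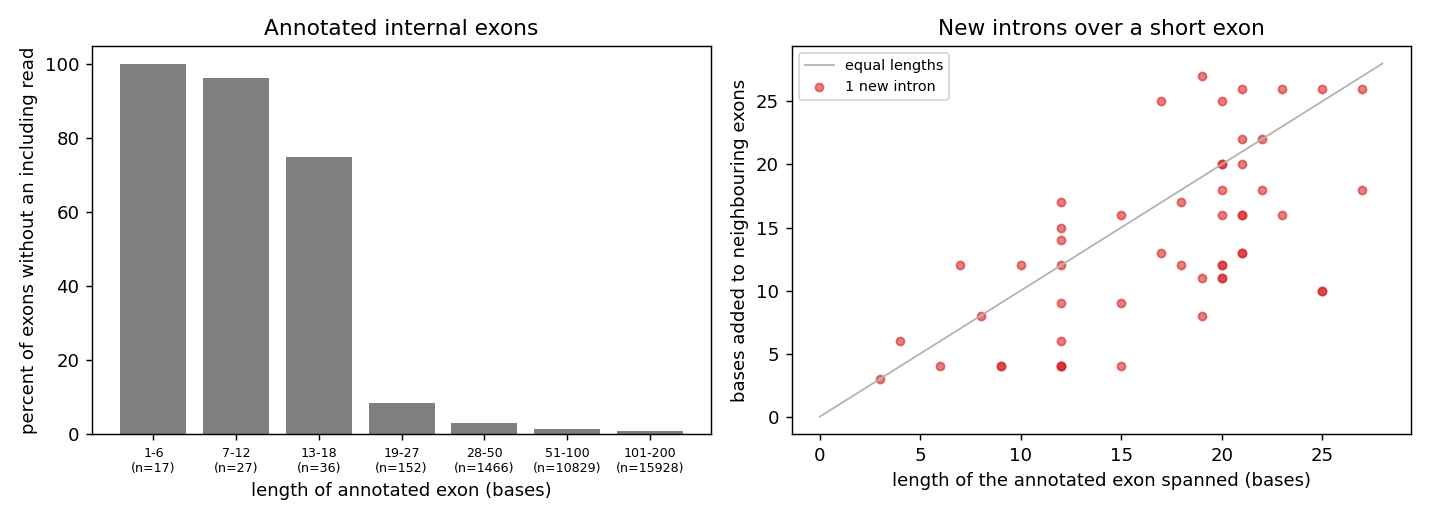
Left, percent of annotated internal exons with no including read by exon length in bases (n exons under each bar): 100% at 1 to 6 bases, 96.3% at 7 to 12, 75.0% at 13 to 18 and 8.55% at 19 to 27. Right, for the 52 new introns across a short exon, the bases added to the neighbouring exons against the length of the exon crossed, with a line where both are equal. Both lengths were bounded by the limits that chose these introns, and 31 points lie within 5 bases of the line.

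Other abundant members with this arrangement were Ergic3, a cargo receptor between endoplasmic reticulum and Golgi (212 and 198 reads), and Idh3g, the gamma subunit of the mitochondrial isocitrate dehydrogenase (180 and 196). Chmp1a, an ESCRT-III protein of membrane scission, had 117 and 136 reads and Mrpl33, a mitochondrial ribosomal protein, 134 and 115. Each of Idh3g, Chmp1a and Mrpl33 took over 70% of its gene's reads in both libraries: 80.0% and 78.7% for Idh3g, 76.0% and 70.8% for Chmp1a, and 91.8% and 92.7% for Mrpl33. In Uqcrh, the hinge protein of respiratory complex III, the member took 25.8% and 19.8%, and models with its 21-base exon had 301 and 437 reads. So in Uqcrh both forms were counted, while in Ergic3 and Idh3g the exon had 0 reads in both libraries. In Rps24, a ribosomal protein of the small subunit, the member had 118 and 108 reads, and Rps24 has a copy, Gm9320, with at least 97% identity over 200 or more bases, so that its counts are uncertain.

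Nrgn encodes neurogranin, a calmodulin-binding protein of dendritic spines. Its member had 567 reads in replicate 1 and 61 in replicate 2 and crossed an 18-base exon in its 3′ UTR intron, with 17 bases added on the acceptor side. The gene had 698 and 197 reads, so the member was 81.2% of them in replicate 1 (78.1 to 84.1) and 31% in replicate 2 (24.6 to 37.9). These intervals do not overlap. The new acceptor itself was used in 99.5% and 100% of informative reads, and the intron had 605 and 69 reads, so the member's share differed between the libraries while the site's usage was near 100% in both. Beside it, Slc17a7, the vesicular glutamate transporter of excitatory neurons, had 130 and 36 reads. The other neuron markers, Rbfox3, Gad1 and Snap25, had 439 and 266, 227 and 227, and 4132 and 3834. The part of cell composition in the Nrgn difference was not tested. Fewer cells of a type and less RNA per cell cannot be told apart in such tissue libraries.

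Rph3a, the Rab3 effector rabphilin, had 35 and 25 reads in its member and crossed a 12-base exon with 4 bases added. Ap1s2, a clathrin adaptor subunit, had 27 and 37 reads and crossed a 9-base exon. Kcnn1, a calcium-activated potassium channel, crossed a 9-base exon in an intron with 15 and 9 reads. Apbb1, a partner of the amyloid precursor protein, crossed a 6-base exon with 5 and 7 reads. In these 4 genes the short exon had 0 reads in both libraries. With so few reads this allows a share of up to 4.92% in replicate 1 and 6% in replicate 2 for Rph3a. For Ap1s2 it allows up to 10.3% and 7.5%, for Kcnn1 20% and 33.3%, and for Apbb1 60% and 42.9%.

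Some abundant members had nothing to do with short exons. Penk, the precursor of the enkephalin peptides, had 284 and 358 reads in its member, 86.6% and 90.2% of the gene's reads. Its new acceptor lay 1 base 5′ of an annotated one, and all 285 and 360 informative reads used it. Rab3a, a small GTPase of synaptic vesicles, had 306 and 246 reads and a donor 1 base 3′ of an annotated one, used in 31.8% and 38.4% of informative reads. In both genes the neighbouring annotated site lacks the usual letters, with GC in place of AG in Penk and GG in place of GT in Rab3a. The windows show the new site in capitals (chr4:4138136-4138165, minus strand, and chr8:70754858-70754887, plus strand).
Penk: gcgttcttctctcctacAGcccatggcgcg
Rab3a: gagagggtaaggGTgagcgcaacccaggtc

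Dctn2, the dynamitin subunit of the dynein activator, had 446 and 367 reads in its member, 311 ± 42.4 CPM. Of the reads with the same acceptor, 91.1% used the new donor in each library, and annotated donors, of which the nearest lies 10 bases upstream, had 47 and 39 reads. Vdac3, a channel of the outer mitochondrial membrane, had 316 and 335 reads with a donor 1 base beyond an annotated one, used in 92.5% and 91.4%. A pseudogene, Vdac3-ps1, is a near copy of Vdac3, so its counts are uncertain. Cct6a, a subunit of the TRiC chaperonin, had 198 and 161 reads in a member with an intron of 50376 bases, both ends unannotated, and the gene is a noncoding entry in this annotation.

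The 15 most abundant members thus fell into 10 with a short exon crossed and 5 without. Nrgn was the only 1 of the 15 whose SD exceeded its mean CPM (240 ± 274). Over all members the median was 6 reads in replicate 1 and 5 in replicate 2, and 132 members had at least 10 reads in both libraries. Members held 0.785% of all reads in replicate 1 (0.770 to 0.800) and 0.704% in replicate 2 (0.690 to 0.719), so replicate 1 held slightly more. At the limit of the rule, 244 members had 3 reads in their lower library, such as 1700028P14Rik and 2310011J03Rik with 3 in each, and 565 chains just outside had 2 reads in the lower library.

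Most members had few new sites. A single new site was found in 609 of 698 members (87.2%), 79 had 2 and 10 had 3 or more. With each new site replaced by the nearest annotated one, at whatever distance, 490 members (70.2%) matched the whole intron chain of an annotated transcript. The median member had 5 introns and the longest 29. Most, 671, lay in protein-coding genes, 18 in long noncoding genes, 4 in pseudogenes and 5 in genes outside the annotation. The 2 libraries gave 8 members to different genes.

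New donors were more numerous than new acceptors. There were 522 distinct donors and 284 acceptors, and 425 members had only new donors, 185 only new acceptors and 88 both. Among the 806 sites, 342 (42.4%) lay within 10 bases of an annotated site of the same kind. The median distance was 26.5 bases for donors and 17.5 for acceptors, and it was 82 and 149 bases in NNC models with 1 read in 1 library. The longest class, over 1000 bases, held 80 donors and 68 acceptors.

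One offset stood out among donors. At +4, where GT is repeated 4 bases into the intron, lay 131 donors (25.1%), and no other offset from -6 to 12 held more than 20. The share at +4 was 22% in models with 3 or more reads in 1 library only and 21.6% in models with 1 read, so it was similar in NNC models outside the members. Where the first 6 intron bases could be read, 51 of 57 such donors had the form GTNNGT (89.5%). Among annotated donors readable in the same way, 14946 of 43440 had it (34.4%), counted on the gene's strand only. A donor at +4 has this form whenever both donors have GT, so setting these shares side by side is no test.

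Usage at these +4 donors was mostly low. The median over 125 of them was 1.26% of informative reads, from 0.0905% to 100%. In Cst3, the cystatin C gene of astrocytes and other glia, 46 and 37 reads used it against 10858 and 7721 at annotated donors, which is 0.422% and 0.477%. In Mt3, a brain metallothionein, the donor took 3.49% and 2.36%, and in Kif5c, a neuronal kinesin heavy chain, 1.61% and 1.66%. At the other end, Idh3g used its +4 donor in 98.0% and 99.1%, Ap1s2 in 87.9% and 87.0%, and Ergic3 in 68.0% and 65.1%. These 3 with high usage are the introns across a short exon described above.

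**Figure D3:**
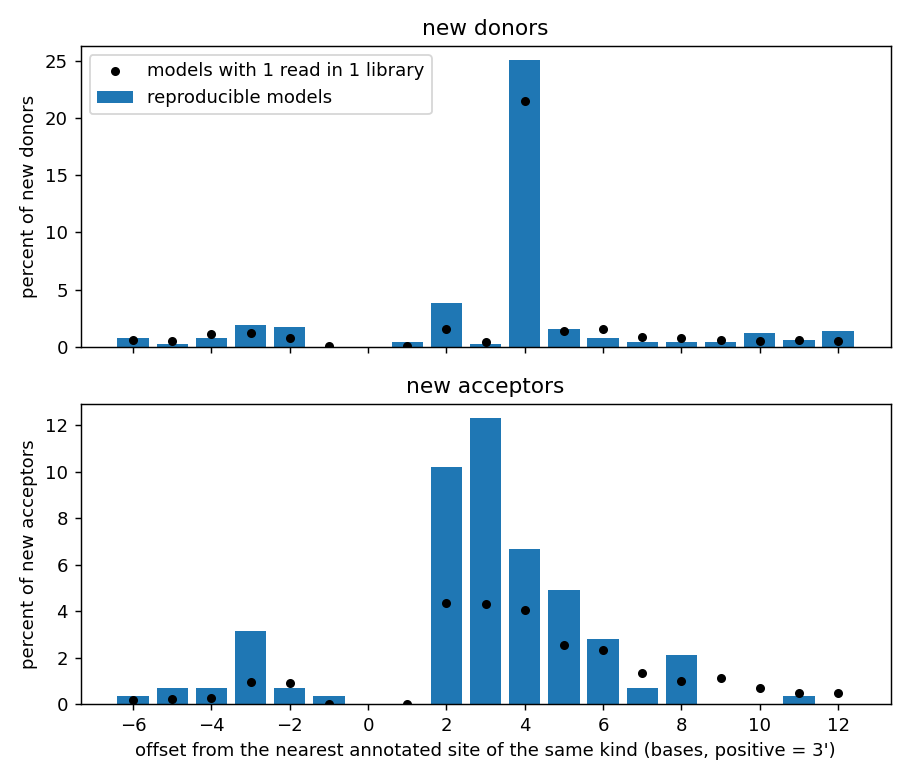
Percent of new donors (top, n = 522) and new acceptors (bottom, n = 284) of members at each offset in bases from the nearest annotated site of the same kind (bars), beside NNC models with 1 read in 1 library (points). Donors peak at +4 in both sets (25.1% and 21.6%), and acceptors of members at +3 (12.3%) and +2 (10.2%).

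Among new acceptors, 76 lay 1 to 3 bases from an annotated one and 55 lay 4 to 10 bases away, of 284. At +3 there were 35 (12.3%), at +2 29, at +4 19 and at +5 14. The 11 acceptors at +3 that could be read all had the form AGNAG, in which a second AG follows the annotated one after 1 base. Of 41231 readable annotated acceptors, 2698 had it (6.54%). An acceptor at +3 has this form whenever both acceptors have AG, so setting these shares side by side is no test. Median usage was 6.25% at +3 over 30 sites and 1.20% at +2 over 28. In Napa, the SNARE-disassembling factor alpha-SNAP, the +3 acceptor took 2.60% and 2.00%. In Apod, an apolipoprotein of myelinating glia, the +4 acceptor took 6.87% and 11.4%, and in Atp5j, a stalk subunit of ATP synthase, the +5 acceptor took 5.30% and 5.75%.

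The dinucleotide could be read at 441 of the 806 new sites, those covered by another annotated transcript or a promoter window, which is not a random choice of sites. Of these 441, 435 (98.6%) had GT or GC at the donor or AG at the acceptor. Among readable donors 226 had GT, 21 had GC (8.47%) and 1 had AT, and among readable acceptors 188 had AG, 4 had AT and 1 had AC. Annotated donors had GC in 2.47%. In models with 1 read in 1 library, 8.49% of readable donors had GC and 95.6% of readable acceptors AG. In models with 3 or more reads in 1 library only, 13 of 315 readable donors had GC (4.13%).

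Shifts of a multiple of 3 keep the reading frame of the bases downstream. For acceptors between coding parts, with a shift of up to 100 bases against the annotated intron of the same donor, 51 of 114 (44.7%) were multiples of 3. For donors it was 31 of 204 (15.2%), and 31 of 104 (29.8%) without the donors at +4. Outside coding sequence 17 of 100 (17%) were multiples of 3, with donors and acceptors pooled and the donors at +4 kept. In introns of the 5′ UTR it was 7 of 25 acceptors (28%) and 8 of 48 donors (16.7%). The acceptors at +3 were kept in the coding count, so these shares are not like for like. A shift is counted against an annotated intron with the same partner site, and no protein was predicted.

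Usage of a new site was the share of informative reads that use it, over reads with an annotated site at the same partner, or, where the partner was new too, over reads with an annotated intron or an exon across it. Both libraries had 20 or more informative reads at 645 of the 806 sites. The median usage was 2.89%, with 369 sites under 5% in both libraries, 134 of them under 1%, and 51 over 50% in both. So most new sites of members took a small share of the informative reads, and a smaller set took the larger share. Some of that smaller set, such as those of Idh3g and Ap1s2, bound introns across a short exon. Whether the RNA molecules held such exons was not tested.

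Between the libraries, usage differed at 3 of these 645 sites by Fisher's exact test, two-sided, with Benjamini-Hochberg adjustment over 23372 sites of NNC models, of which 0.0342% were called. At an unadjusted p under 0.05 there were 30 (4.65%), against 160 of all 23372 sites (0.685%), by the same exact test. The 3 are 0.465% of the member sites. The rule left out models with under 3 reads in either library, so this count does not measure how reproducible the usage of new sites is. The test compares 2 libraries and no condition. Sites of all NNC models include those of models with 1 read in 1 library, a count that can hardly reach such a p. Members had at least 3 reads in each library by the rule. The shares of members and of all sites are therefore not like for like, and the part of depth in their difference was not tested. In Hdgfl3, a growth-factor-related protein of neurons, a donor 365 bases 3′ of the annotated one had 21 reads in replicate 1 and 18 in replicate 2 (17.2% and 66.7%, adjusted p 0.00302 by Fisher's exact test).

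**Figure D4:**
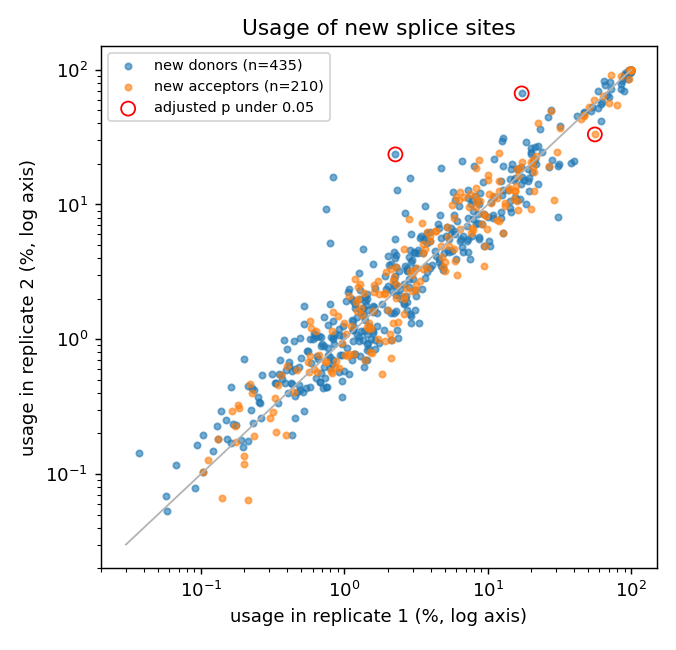
Usage in percent of informative reads in replicate 1 against replicate 2, log axes, for 435 new donors and 210 new acceptors where both libraries had 20 or more informative reads; rings mark the 3 sites with an adjusted p under 0.05. Most points lie under 5% in both libraries along the line of equal usage.

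New cassette exons are internal exons with both ends unannotated that lie inside an annotated intron. There were 30 in 27 genes, 24 to 222 bases long with a median of 95.5. Of the 14 in introns between coding parts, 10 had a length that is a multiple of 3, and over all 30 it was 14. Another 12 lay in introns of the 5′ UTR. Inclusion is the share of reads with the exon over those plus reads with an intron across it, and 25 exons had at least 20 such reads in each library. Their median inclusion was 7.59%, 14 were under 10% in both libraries and none was over 50% in both. The exons left out for too few such reads were all over 50% in both libraries, with values given below. The 95% Clopper-Pearson intervals of the libraries overlapped for all 25.

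Tusc3, a subunit of the oligosaccharyltransferase complex, had the cassette exon with most reads, 64 bases at chr8:39161007-39161070 on the plus strand, 3656 bases from the upstream exon. It was in 53 of 576 informative reads in replicate 1 (9.20%, 6.97 to 11.9) and 53 of 656 in replicate 2 (8.08%, 6.11 to 10.4). Sarnp, an mRNA export factor, had a 53-base exon at chr10:128824779-128824831 in its 5′ UTR. It was in 49.5% (39.4 to 59.6) and 52.8% (41.9 to 63.5), with 50 and 47 reads, the highest inclusion of the 25. Sarnp has a near copy, Gm6563, so its counts are uncertain.

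Glrb, the beta subunit of the glycine receptor, had a 48-base exon between coding exons at chr3:80850428-80850475, on the minus strand. It was included in 8.25% (4.79 to 13) and 10.6% (6.65 to 15.7) of reads. Pak1, a kinase of the actin cytoskeleton, had the shortest, 24 bases at chr7:97884753-97884776, included in 3.10% and 3.35%. Cog7, a Golgi tethering factor, had a 36-base exon included in 27.5% (14.6 to 43.9) and 49.0% (34.4 to 63.7), with overlapping intervals. Cnot7, a deadenylase subunit, had a 39-base exon in 15% and 11%. The exons of Glrb, Pak1, Cog7 and Cnot7 all have lengths that are multiples of 3 and lie between coding exons, while the 64 bases of Tusc3 are not such a multiple.

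Snrpn, the imprinted gene of a small nuclear ribonucleoprotein, had more members than any other gene, 6. Together they held 76 of 1690 reads in replicate 1 and 61 of 1185 in replicate 2. It had 4 of the new cassette exons, all in introns of its 5′ UTR. The 44-base exon was included in 1.59% (1.03 to 2.34) and 2.24% (1.44 to 3.31), and those of 149, 124 and 128 bases in under 1% in both libraries. The exons of 44 and 124 bases share an end at chr7:59993662. Cox17, a copper chaperone of cytochrome oxidase, followed with 5 members, and Cpe, Aldoc and Rtn1 had 4 each. Of the genes with a member, 512 had 1.

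The other 5 exons, in AC133601.1, Gm49329, Clec18a, Zfp983 and Zfp711, had under 20 informative reads in at least 1 library. Inclusion in replicate 1 and replicate 2 was 100% and 100% in AC133601.1, 83.3% and 100% in Gm49329, and 53.3% and 64.3% in Clec18a. It was 100% and 80% in Zfp983 and 100% and 66.7% in Zfp711. With so few reads the intervals are wide, such as 22.3 to 95.7 for Zfp711 in replicate 2. Fam171b had a 182-base exon in 10.3% and 4.86% and Rnf13 a 144-base exon in 8.94% and 7.09%, with overlapping intervals in both.

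**Figure D5:**
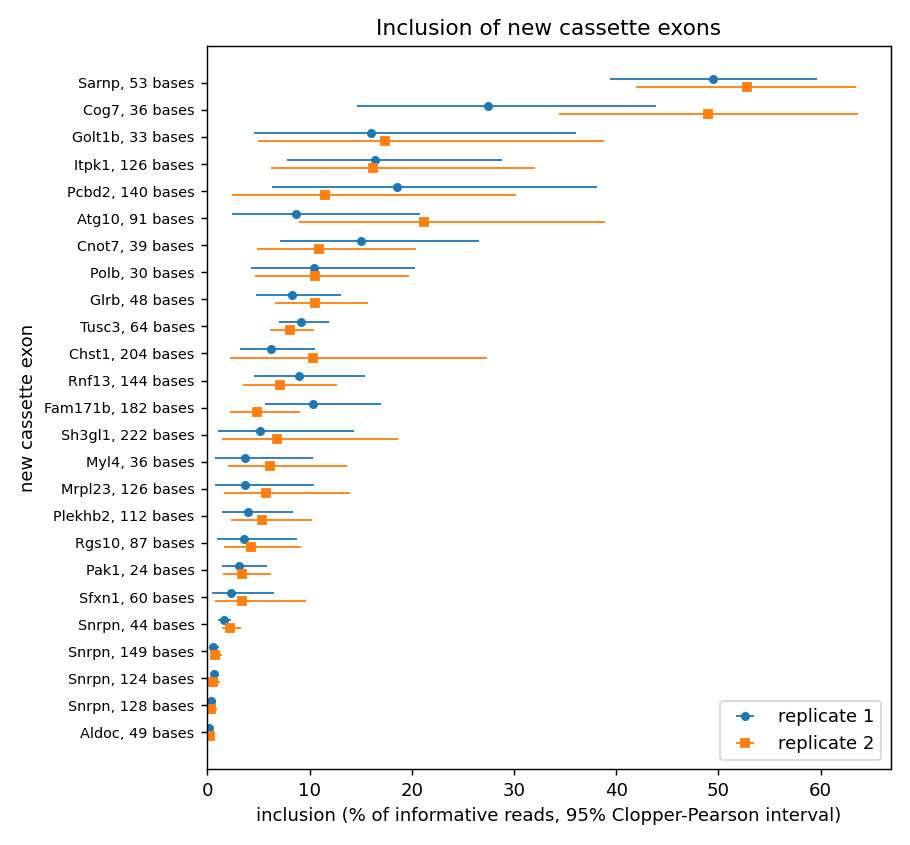
Inclusion of the 25 new cassette exons where both libraries had 20 or more informative reads, as percent of informative reads in replicate 1 (circles) and replicate 2 (squares) with 95% Clopper-Pearson intervals. Sarnp lies near 50% in both libraries, Tusc3 at 9.20% and 8.08%, and 14 exons lie under 10% in both.

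New introns with both ends unannotated and lying inside 1 annotated exon numbered 28, from 78 to 3652 bases. By the exon's place, 8 lay in a 3′ UTR, 3 in a 5′ UTR, 4 in coding sequence, 4 across coding sequence and UTR, and 9 in exons of noncoding transcripts such as retained introns. Slc25a3, the mitochondrial phosphate carrier, had an intron of 208 bases in its 5′ UTR with 40 and 26 reads, whose ends lie 4 and 3 bases from annotated ones. The noncoding gene 9330151L19Rik had an intron of 945 bases with 21 and 19 reads. Actg1, the gamma actin gene, had an intron of 144 bases in its 3′ UTR with 14 and 16 reads, and Actg1 has a near copy, Gm12715, so its counts are uncertain.

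A further 65 donors bounded a new first exon and 18 acceptors a new last exon, neither overlapping an annotated exon. In Cmip, an adaptor protein, the member with a new first exon had 59 and 34 reads, and its donor was used in 58.7% and 69.2% of the reads entering the same acceptor. In Ctxn2, a cortexin, a donor 578 bases 5′ of the annotated one was used in 95.1% and 85.7%. In Snap25, the SNARE of synaptic vesicle fusion, a donor 183 bases 3′ of the annotated one, in the 5′ UTR, took 0.701% and 0.928%, with 24 and 26 reads. In Gria2, an AMPA receptor subunit, an acceptor of a new last exon took 1.25% and 2.00%, with 3 and 5 reads.

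Genes with more reads more often had a member. Of 6411 genes with an annotated intron and at least 20 reads in each library, 538 (8.39%) had a member. The share was 2.69% among genes with 20 to 49 reads in the lower library, 9.25% at 100 to 199 and 21.4% at 200 to 499. It was 38.4% at 500 to 999 and 55.7% at 1000 or more. Gene lists are therefore given with their depth. Among cytosolic ribosomal proteins 41 of 80 had a member (51.2%) with a median of 835.5 reads per gene in the lower library, and among oxidative phosphorylation genes 27 of 67 (40.3%) with 566. Among astrocyte and lipid carrier genes it was 7 of 22 (610 reads), cytoskeleton genes 9 of 43 (373), myelin genes 5 of 19 (261) and synaptic vesicle genes 5 of 26 (218.5).

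The remaining lists had fewer reads per gene. Among SR and SR-like factors 0 of 16 genes had a member, at a median of 58 reads, and among hnRNPs and neuronal splicing regulators 1 of 30, at 93.5. That gene was Hnrnpa1, with 8 and 4 reads in a member whose donor lies 2 bases 3′ of the annotated one; it has a near copy, Hnrnpa1l2-ps2, and its counts are uncertain. Among postsynaptic genes 2 of 23 had a member, at 78 reads, namely Nrgn and Gria2. None of 12 long noncoding RNAs listed had one, at 62 reads. Of all genes with 50 to 99 reads in the lower library, 5.31% had a member.

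Rps24, described above, was the ribosomal protein gene whose member took the largest share of the gene's reads, 59.3% and 54.3%. Rpl37, by contrast, had 54 and 49 reads in a member with a donor 2 bases 5′ of the annotated one, 2.71% and 2.31% of the gene's reads. Rplp2 had 51 and 32 reads with an acceptor at +3, 5.58% and 3.45%. Near copies exist for both. Of 589 genes with a member that were searched, 110 had a copy elsewhere with at least 97% identity over 200 or more bases. The myelin gene Mbp had 12 and 14 reads in a member with a donor at +20, 0.288% and 0.422% of its reads, and Mobp had 12 and 4.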

How the data were processed

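Long-read RNA-seq of 2 cortex libraries was deposited as TALON count tables, whole-number read counts per model in the deposited files, and as GTF files whose other numeric columns are exon positions on mm10, per the file headers and the labels. The aligner and the TALON version were not given in the sources used here. Exon positions of known models equalled GENCODE M21, which served as annotation. Members were matched by chromosome, strand and all introns. CPM used all reads of a library. Distances, usage, inclusion and shares were computed with Python 3.11.15 and SciPy 1.17.1, intervals as 95% Clopper-Pearson for counting error only, and near copies with blastn 2.17.0. The usage test was tested on simulated data. Bases came from GENCODE M21 transcripts and RefSeq promoter windows (GRCm38.p6), which shared 3304348 bases and differed at 0; no sequence of chromosome 18 is shown. Members, gene lists and rules were chosen with earlier results of these data known. Genes named were the members highest in CPM, in each distance class, in share of their gene, in cassette exons, in introns inside exons and in each gene list, and the genes with most members; others were named after their values were seen. One group leaves no condition to compare. Some results, among them members named by the rule, are not reported here.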

Additional observations from a re-analysis of the deposited data

How the results depend on the processing

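The number of members was 1263 at 2 reads in each library, 330 at 5 and 132 at 10, and with 1 library alone 1566 to 1711. It was 701 when intron positions could differ by 3 bases. New sites numbered 1321, with 58.5% donors, when sites of known transcripts with a read alone counted as annotated. The share within 10 bases was 46.2% at 5 reads and 51.4% at 10. With 1 library alone it was 40.0% to 40.3%. New cassette exons numbered 97 with either end unannotated, 16 at 5 reads and 4 at 10. Median usage was 3.78% at 10 informative reads. Introns across a short exon, an analysis added after seeing the data, numbered 25 at 10 reads, 30 when ends lay within 15 bases, and 77 to 83 with 1 library alone. All other alternatives listed stayed within the limits set. A count of 0 reads allows up to 3 reads. No paired analysis was possible because the design has 1 group.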
